A study of Mus musculus with 10 samples.

Results

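Metalloproteinases and their inhibitors were followed across 10 pancreatic tumours of KPF mice, a genetic mouse model of pancreatic cancer on the C57BL/6J background. Members were chosen by symbol alone: every row of the count table named as a matrix metalloproteinase (Mmp), a tissue inhibitor of metalloproteinases (Timp), a disintegrin and metalloproteinase (Adam), or an Adam with thrombospondin motifs (Adamts). This gave 80 genes of 55487 in the table, made up of 23 Mmp, 4 Timp, 34 Adam and 19 Adamts genes. Polyadenylated RNA was sequenced from 5 primary tumours labelled Grem1-deleted, whose mice had received tamoxifen at 100 mg/kg daily for 5 days from 5 weeks of age. It was also sequenced from 5 tumours labelled Grem1 wild-type, whose mice had received peanut oil on the same days. The mice were 6 to 12 weeks old when used. Genotype and tamoxifen went together in every animal and cannot be told apart, and the sources used here do not name the recombinase on which tamoxifen acts.

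MMPs are zinc-dependent enzymes that cut collagens, other matrix proteins and secreted factors, and most are secreted as inactive precursors. TIMPs bind the active site of MMPs and of some ADAMs. ADAMs are membrane proteins, several of which release growth factors, cytokines and receptors from the cell surface, while ADAMTS enzymes are secreted and process procollagens and proteoglycans. In pancreatic cancer, which has a dense collagen-rich stroma, these enzymes are made by fibroblasts, macrophages and neutrophils as well as by tumour cells. Grem1 itself encodes a secreted inhibitor of bone morphogenetic proteins.

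Total estimated counts ran from 10159891 to 18571519 per library. Values are given in CPM, read counts scaled to a common library size. Grem1 was at 6.81 to 110.0 CPM in tumours labelled deleted and at 3.95 to 42.9 CPM in wild-type tumours, so the deletion label was not matched by a lower level of the targeted gene (log2 fold change 1.08, SE 0.79, adjusted p = 0.761, edgeR quasi-likelihood test). That value rests on labelled-deleted tumour 2: it was 0.25 without it, and -0.40 (SE 0.71) without tumours 1 and 2. The groups are therefore named by their labels. The material is described as bulk tissue, although its extraction protocol speaks of sorted cells. All 5 epithelial, all 6 fibroblast and all 6 macrophage markers examined had counts in every library. Labelled-deleted tumour 1 stood apart on the first principal component of all tested genes, and held the lowest summed epithelial (1396 CPM, against 2620 to 4387 CPM in the other 9) and fibroblast markers (5247 CPM, against 10606 to 19049 CPM). All 5 epithelial markers were lowest there, but only 4 of the 6 fibroblast markers, collagen genes among them: Pdgfrb was the highest of all tumours, at 352 CPM against 152 to 224 CPM, and Pdgfra was the second highest, at 226 CPM. Labelled-deleted tumour 2 held 1535 CPM of intestinal epithelial markers, against 0.327 to 6.83 CPM in the others. Values without tumour 1, or without both, stand beside many of the results, but not beside every result that they move. In bulk tissue, fewer cells of a type and less RNA per cell cannot be told apart.

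Enough counts for a test were present in 52 of the 80 members, a filter applied to the counts of all 10 libraries. The 28 others were mostly germline ADAMs, genes of sperm and testis, of which 20 of 22 were not tested. No count in any library was found for 12 members, namely Mmp21 and 11 germline ADAMs, where 3 counts would correspond to 0.16 to 0.301 CPM. The untested members outside the germline group were Mmp1a, Mmp1b, Mmp20, Mmp21, Mmp27, Timp4, Adamts13 and Adamts18. Their highest value in any tumour was 1.88 CPM, for Adamts18 in wild-type tumour 1. Mmp1a, a rodent counterpart of the human interstitial collagenase, had 16 counts over all libraries, and 10 of these lay in labelled-deleted tumour 1.

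The sequences shown first are those of the Mmp cluster on chromosome 9, because its genes lie side by side and yet 1 tumour held the highest values of some and the lowest of others. It holds 10 members in the order Mmp13, Mmp12, Mmp1b, Mmp3, Mmp1a, Mmp10, Mmp8, Mmp27, Mmp20 and Mmp7, from 7272514 to 7699585 in GRCm38, a stretch of 427 kb. AP-1, the dimer of FOS and JUN proteins, is a textbook activator of several of these promoters through the sequence TGACTCA or its reverse complement TGAGTCA. Both strands were searched in the RefSeq promoter windows of build GRCm38.p6, which run from 250 bases before to 50 after each annotated start. The AP-1 sequence was in 5.2% of 32851 windows, and in at least 1 window of 5.95% of 27025 genes. It was in a window of 7 of the 10 cluster genes, each time in the same window as the TATA sequence TATAAA or its reverse complement TTTATA, and in 3 of 40 other members that matched a window by symbol. TATAAA in either orientation was in 13.6% of all windows and in a window of 15.7% of genes. Printed 5′ to 3′ on the plus strand are the 100 bases before and 20 after the start of the 6 tested cluster genes, with AP-1 and TATA sequences in capitals.
Mmp13, chr9:7272414-7272533: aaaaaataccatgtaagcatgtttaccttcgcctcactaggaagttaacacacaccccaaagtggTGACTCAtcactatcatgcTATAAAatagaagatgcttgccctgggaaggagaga
Mmp12, chr9:7347274-7347393: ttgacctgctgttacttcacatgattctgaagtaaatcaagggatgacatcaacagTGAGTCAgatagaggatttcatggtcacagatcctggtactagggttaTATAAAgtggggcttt
Mmp3, chr9:7445722-7445841: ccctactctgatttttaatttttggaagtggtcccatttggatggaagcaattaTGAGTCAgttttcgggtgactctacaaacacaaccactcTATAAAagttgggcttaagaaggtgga
Mmp10, chr9:7502242-7502361: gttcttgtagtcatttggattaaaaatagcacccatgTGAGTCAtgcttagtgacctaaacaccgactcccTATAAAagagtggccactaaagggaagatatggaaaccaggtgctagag
Mmp8, chr9:7558329-7558448: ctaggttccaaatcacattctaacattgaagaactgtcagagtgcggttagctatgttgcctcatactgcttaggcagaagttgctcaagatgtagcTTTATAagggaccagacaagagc
Mmp7, chr9:7691990-7692109: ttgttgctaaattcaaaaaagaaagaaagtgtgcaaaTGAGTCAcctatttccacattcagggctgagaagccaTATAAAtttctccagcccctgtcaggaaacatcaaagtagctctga
The first base of the AP-1 sequence lies at position -35 in Mmp13, -44 in Mmp12, -46 in Mmp3, -63 in Mmp10 and -63 in Mmp7, where -1 is the base before the annotated start. Mmp8 has no such sequence in its window. For Mmp12 the window printed is the second of 2 annotated starts, since the first holds neither sequence. GGCGCC, a site bound by the SMAD proteins that act in BMP signalling, was in 11.9% of all windows and in a window of 13.4% of genes. It was in a window of 9 of the 50 members that matched one, and of none of the 10 cluster genes. The absence from the cluster says only that these letters are not in these windows.

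Levels between genes were compared per kilobase (kb) of annotated exon. Mmp2 had the highest mean over the 10 tumours, with 247 CPM per kb in tumours labelled deleted and 251 CPM per kb in wild-type tumours, although Timp1 was slightly higher in the wild-type group. Timp1 was at 198 and 254, Timp2 at 213 and 167, Mmp14 at 122 and 123, and Timp3 at 75.5 and 111 CPM per kb in the labelled-deleted and wild-type tumours. Among ADAMs, Adam9 was highest, at 61.5 CPM per kb in tumours labelled deleted and 61.0 CPM per kb in wild-type tumours. Among ADAMTS genes it was Adamts2, at 46.1 and 42.3 CPM per kb in the same order of groups. The ranges of Mmp2, Timp1 and Timp2 over the 10 tumours overlapped, while every Mmp2 value lay above every Mmp14 value. The sum of all Mmp levels per kb, divided by the sum of all Timp levels, was 1.33, 1.09, 1.39, 1.17 and 1.18 in labelled-deleted tumours 1 to 5. In wild-type tumours 1 to 5 this ratio was 0.814, 1.55, 1.10, 1.29 and 1.09. Wild-type tumours thus held the lowest and the highest ratio, and those labelled deleted lay between them.

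**Figure D1:**
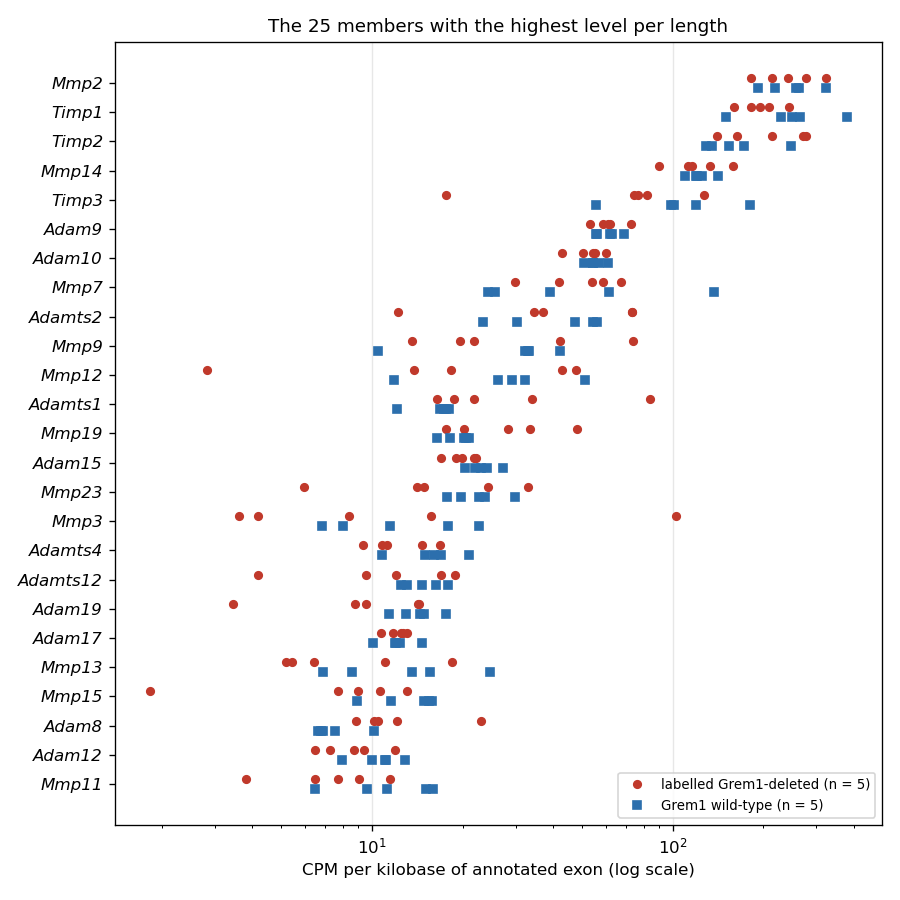
Level of the 25 members with the highest mean level per length, in CPM per kilobase of annotated exon on a log axis. Each point is 1 tumour, circles for the 5 labelled Grem1-deleted and squares for the 5 wild-type; Mmp2 averaged 247 and 251 CPM per kb in these groups, and the groups overlap in every gene shown.

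The comparison of the labels asked whether these genes differed between tumours labelled Grem1-deleted and wild-type tumours. With edgeR's quasi-likelihood test and Benjamini-Hochberg adjustment over all tested genes, 0 of 52 members and 0 of 16565 genes (0.0%) passed an adjusted p of 0.05, and the lowest adjusted p among members was 0.759. An unadjusted p under 0.05 was found for 983 genes, 5 of them members. DESeq2 called 0 of 68 members and 7 of 31198 genes (0.0224%), and limma-voom called 0. Of these 5 members, 3 were higher in tumours labelled deleted (Adam8, Adamts1 and Mmp19), which is 5.77% of members against 3.47% of all tested genes. The other 2 were lower (Mmp28 and Adam15), which is 3.85% against 2.46%. These shares rest on few genes. In no member did all 5 tumours labelled deleted lie above all wild-type tumours (0.495% of all genes) or below them (0.435%). A log2 fold change above 0 was found in 20 of 52 members (38.5%), against 55.1% of all genes. Without labelled-deleted tumour 1 it was 21 of 52 (40.4%), against 51.8%, and without tumours 1 and 2 it was 25 of 52 (48.1%), against 50.3%, so most of the gap was not seen without those tumours. The median over members was -0.08, against 0.03 over all tested genes. By family, 5 of 18 tested Mmp genes had a positive value (median -0.23), 1 of 3 Timp genes, 6 of 14 Adam genes (median -0.03) and 8 of 17 Adamts genes (median -0.02). Leaving out labelled-deleted tumours 1 and 2 did not move the Mmp count, at 5 of 18 (median -0.23), or the Timp count. The Adam count became 7 of 14 (median 0.02) and the Adamts count 12 of 17 (median 0.11).

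**Figure D2:**
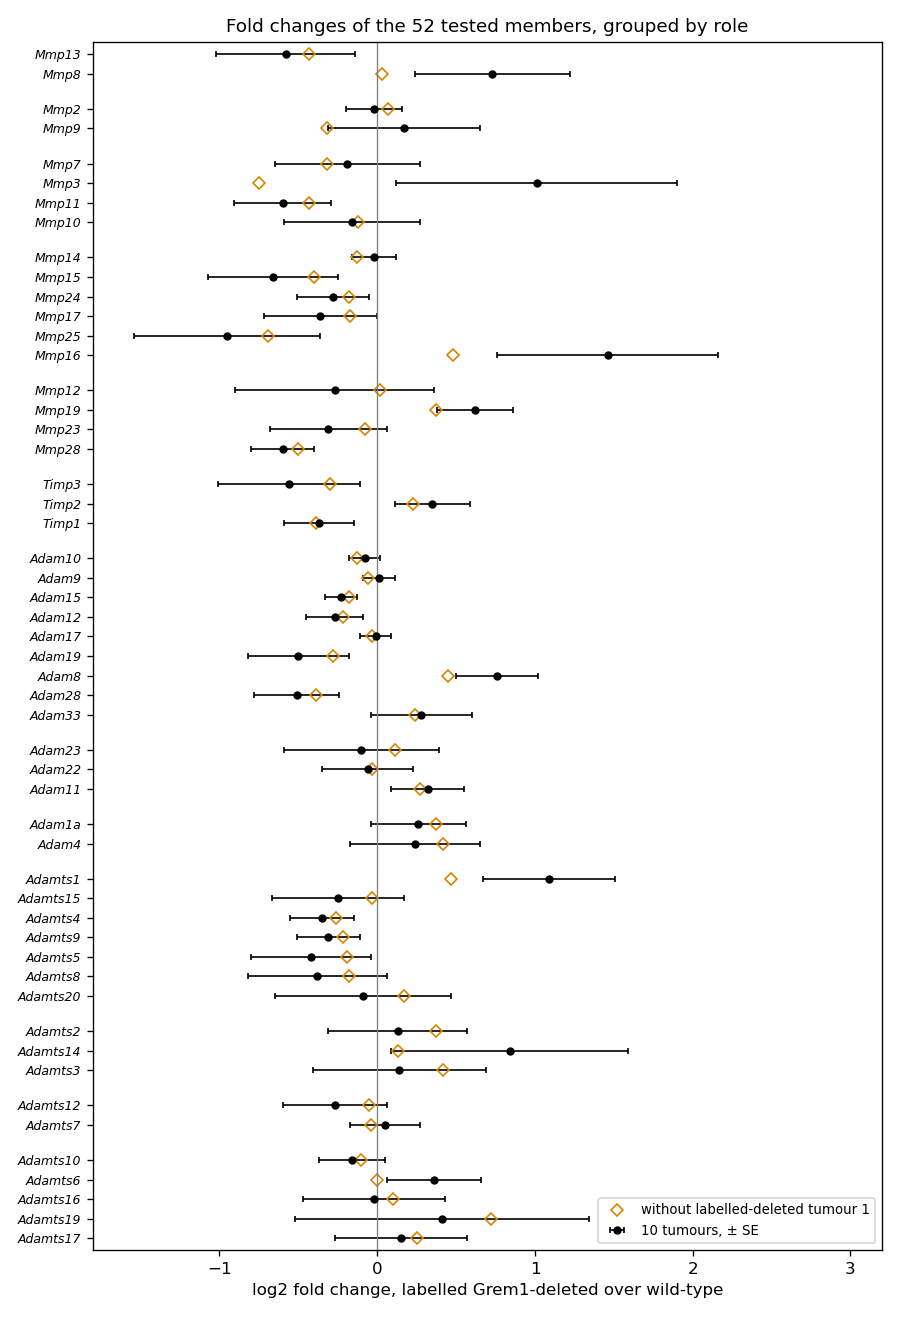
Log2 fold change, tumours labelled Grem1-deleted over wild-type, of the 52 tested members in groups by role, with bars of ± 1 SE (circles), and the same without labelled-deleted tumour 1 (diamonds). No member passed the test; Mmp3 was at 1.01 with all tumours and -0.75 without that tumour.

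The collagenases cut fibrillar collagen, and Mmp13 is the main one in mice while Mmp8 comes largely from neutrophils. Mmp13 stood at 13.8, 29.6, 17.2, 14.5 and 49.5 CPM in labelled-deleted tumours 1 to 5. In wild-type tumours 1 to 5 it stood at 66.2, 18.4, 23.0, 36.4 and 41.8 CPM. The groups overlapped widely, and the log2 fold change was -0.58 (SE 0.44, adjusted p = 0.763, edgeR). Mmp8 was at 16.2 CPM in labelled-deleted tumour 1, 2.07 to 5.05 CPM in the other 4 of that group and 2.51 to 5.09 CPM in wild-type tumours. Its log2 fold change of 0.73 (SE 0.49) was 0.03 (SE 0.30) without that tumour. The summed neutrophil markers were lowest in that same tumour (12.4 CPM, against 35.2 to 130.0 CPM in the others), as were 5 of the 6 markers singly. Their part in the value was not tested.

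The gelatinases cut denatured collagen and basement membrane. Mmp2, a product mainly of fibroblasts, was at 614, 932, 812, 1085 and 722 CPM in labelled-deleted tumours 1 to 5. It was at 738, 1092, 868, 885 and 646 CPM in wild-type tumours 1 to 5. The group means were 833 ± 183 CPM and 845 ± 169 CPM in tumours labelled deleted and wild-type (SD, n = 5 each), a log2 fold change of -0.02 (SE 0.18). Mmp9, which neutrophils and macrophages make, varied more. Its levels were 260.0, 149, 69.5, 48.0 and 77.1 CPM in tumours labelled deleted, against 118, 37.0, 117, 149 and 114 CPM in wild-type tumours. Between the groups the log2 fold change was 0.17 (SE 0.48), and -0.32 (SE 0.41) without labelled-deleted tumour 1, which held the highest value. That tumour held the lowest summed neutrophil (12.4 CPM) and macrophage markers (1144 CPM) of all tumours. The part of these markers in the Mmp9 value was not tested.

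The stromelysins Mmp3 and Mmp10 and the matrilysin Mmp7 act on a broad range of matrix proteins, and Mmp11 is listed with them here. Mmp3 stood at 185, 28.4, 7.53, 6.49 and 15.1 CPM in labelled-deleted tumours 1 to 5, and at 40.7, 14.4, 12.3, 20.6 and 32.3 CPM in wild-type tumours 1 to 5. Labelled-deleted tumour 1 was far above all others, while tumours 3 and 4 of that group were below every wild-type tumour. With all tumours the log2 fold change was 1.01 (SE 0.89, adjusted p = 0.789), and it turned to -0.75 (SE 0.50) without labelled-deleted tumour 1. It was -1.31 without labelled-deleted tumours 1 and 2. In the per-length ratio of Mmp3 to Mmp13, that tumour stood at 19.9, against 0.452 to 1.42 in the other 9. Mmp7, made by ductal epithelium, was at 32.0 to 71.9 CPM in tumours labelled deleted, and at 25.9 to 65.7 CPM in 4 wild-type tumours, with 146 CPM in wild-type tumour 2. The 71.9 CPM lay in labelled-deleted tumour 1, where summed epithelial markers were lowest (1396 CPM, against 2620 to 4387 CPM in the other 9). The part of these markers in the Mmp7 value was not tested. Mmp11, a stromal fibroblast enzyme, averaged 21.4 ± 7.91 CPM in tumours labelled deleted and 32.4 ± 10.9 CPM in wild-type tumours (SD, n = 5 each), a log2 fold change of -0.60 (SE 0.31, adjusted p = 0.759).

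Across the chromosome 9 cluster, Mmp13, Mmp12 and Mmp10 shared their 2 highest tumours, and Mmp3 and Mmp8 departed from them in labelled-deleted tumour 1. Mmp7 did not share those tumours: its highest values were 146 CPM in wild-type tumour 2 and 71.9 CPM in labelled-deleted tumour 1. Mmp12, the macrophage elastase, was at 20.4, 132, 309, 100.0 and 345 CPM in labelled-deleted tumours 1 to 5, against 370.0, 85.4, 233, 190.0 and 211 CPM in wild-type tumours 1 to 5. Mmp10 ran from 4.52 to 18.2 CPM in tumours labelled deleted and from 6.63 to 20.3 CPM in wild-type tumours. Wild-type tumour 1 and labelled-deleted tumour 5 held the highest and the second highest values of Mmp12 and Mmp10, and also led for Mmp13. Outside labelled-deleted tumour 1, the same tumours were the highest for Mmp8 (5.05 CPM in labelled-deleted tumour 5 and 5.09 CPM in wild-type tumour 1), and wild-type tumour 1 was the highest for Mmp3. In labelled-deleted tumour 1 the neighbouring genes went apart: Mmp12 and Mmp13 had their lowest values of all tumours there and Mmp3 and Mmp8 their highest. The summed macrophage markers were also lowest in that tumour, at 1144 CPM against 2048 to 4470 CPM in the others. Of the 6 markers 3 were lowest there, with Lyz2 at 382 CPM against 1227 to 2824 CPM, while Cd68, C1qa and Mrc1 were lower in another tumour. Their part in the Mmp12 value was not tested. The log2 fold change of Mmp12 was -0.27 (SE 0.63), and 0.02 (SE 0.46) without labelled-deleted tumour 1. This grouping of neighbours was noticed after the values were seen and is a description.

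**Figure D3:**
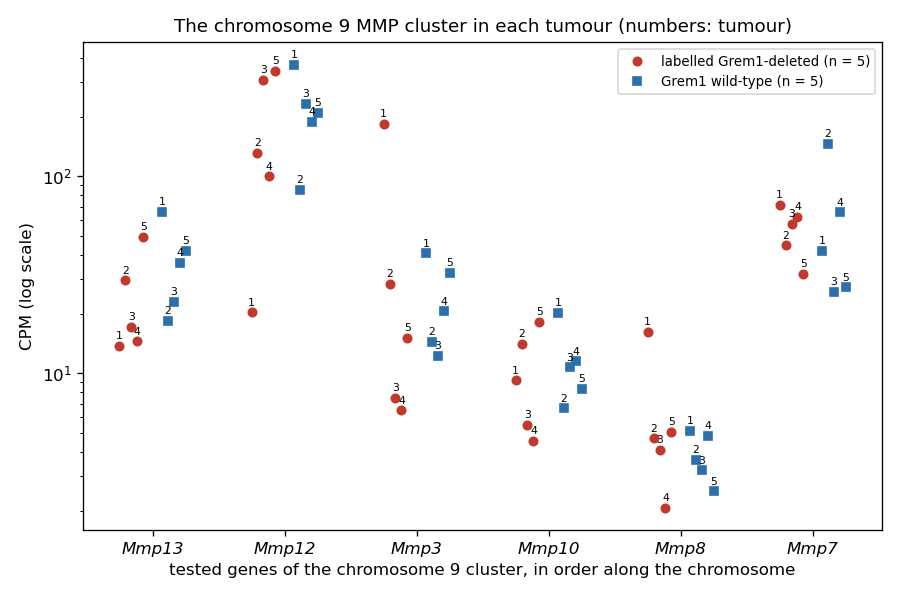
Levels in CPM on a log axis of the 6 tested genes of the chromosome 9 cluster, in their order along the chromosome. Each point is 1 tumour, numbered within its group, circles for tumours labelled Grem1-deleted and squares for wild-type; labelled-deleted tumour 1 lies at 185 CPM of Mmp3 and at 20.4 CPM of Mmp12.

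The membrane-type MMPs cut matrix at the cell surface, and Mmp14 also activates the Mmp2 precursor in a complex with Timp2. Mmp14 was at 947, 671, 536, 793 and 690.0 CPM in labelled-deleted tumours 1 to 5, and at 719, 746, 714, 842 and 654 CPM in wild-type tumours 1 to 5. The groups overlapped, and the log2 fold change was -0.02 (SE 0.14). Its share of the summed Mmp level per kb lay between 16.2% and 23.7% in tumours labelled deleted and between 17.9% and 22.0% in wild-type tumours. The epithelial Mmp15 stood at 9.84, 41.7, 70.8, 48.6 and 57.3 CPM in tumours labelled deleted, against 62.4, 48.1, 83.8, 85.2 and 80.4 CPM in wild-type tumours. Labelled-deleted tumour 1 was the lowest of all. For Mmp15 the log2 fold change was -0.66 (SE 0.41, adjusted p = 0.759), and -0.40 (SE 0.20) without that tumour, which also held the fewest epithelial markers. Their part was not tested. Mmp16 was at 13.2 CPM in labelled-deleted tumour 1, and at 0.983 to 2.69 CPM and 0.470 to 2.63 CPM in the other 4 of that group and in wild-type tumours. Its log2 fold change of 1.46 (SE 0.70, adjusted p = 0.759) was 0.48 (SE 0.47) without that tumour. Mmp25, an MMP of leukocytes held by a lipid anchor, was at 2.51 ± 1.93 CPM in tumours labelled deleted and 4.84 ± 2.33 CPM in wild-type tumours (SD, n = 5 each), and Mmp24 at 11.4 ± 2.16 and 13.9 ± 4.22 CPM. The log2 fold change of Mmp25 was -0.95 (SE 0.59, adjusted p = 0.759, edgeR), the lowest of the 52 members. It was -0.69 (SE 0.49) without labelled-deleted tumour 1.

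Among the remaining MMPs, Mmp19 and Mmp28 had an unadjusted p under 0.05. Mmp19, a broadly expressed secreted MMP on chromosome 10 (128790910 to 128800824, plus strand, GRCm38), stood at 170.0, 71.5, 118, 99.8 and 62.4 CPM in labelled-deleted tumours 1 to 5. In wild-type tumours 1 to 5 it stood at 57.9, 72.5, 71.4, 74.1 and 64.0 CPM. Tumours 1, 3 and 4 of those labelled deleted lay above every wild-type tumour and the other 2 within their range. This gave a log2 fold change of 0.62 (SE 0.24), with p = 0.0297 unadjusted, 0.759 adjusted (edgeR) and 0.103 in an exact permutation test, and it was 0.37 (SE 0.18) without labelled-deleted tumour 1. Mmp28, the epilysin of epithelial tissue, lies on chromosome 11 (83440768 to 83463071, minus strand). It was at 7.27, 9.48, 11.6, 10.9 and 12.0 CPM in tumours labelled deleted, against 15.9, 15.5, 18.4, 9.73 and 18.3 CPM in wild-type tumours. Apart from wild-type tumour 4, every wild-type tumour lay above every tumour labelled deleted. The log2 fold change was -0.60 (SE 0.20), with p = 0.0135 unadjusted, 0.759 adjusted, and 0.0317 by exact permutation of log2 CPM. Without labelled-deleted tumour 1 it was -0.50 (SE 0.19). Summed epithelial markers were 1396 to 3846 CPM (median 2926) in tumours labelled deleted and 3511 to 4387 CPM (median 3854) in wild-type tumours, and all 5 had negative log2 fold changes, from -0.47 for Cdh1 to -0.31 for Krt19. The part of these markers in the Mmp28 value was not tested. Exons of genes on the opposite strand overlap 28.3% of Mmp19's exon length and 12.0% of that of Mmp28, and the sources used here do not say whether counting used strand. Mmp23 was at 43.1 ± 24.3 CPM in tumours labelled deleted and 53.3 ± 10.9 CPM in wild-type tumours (SD, n = 5 each).

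**Figure D4:**
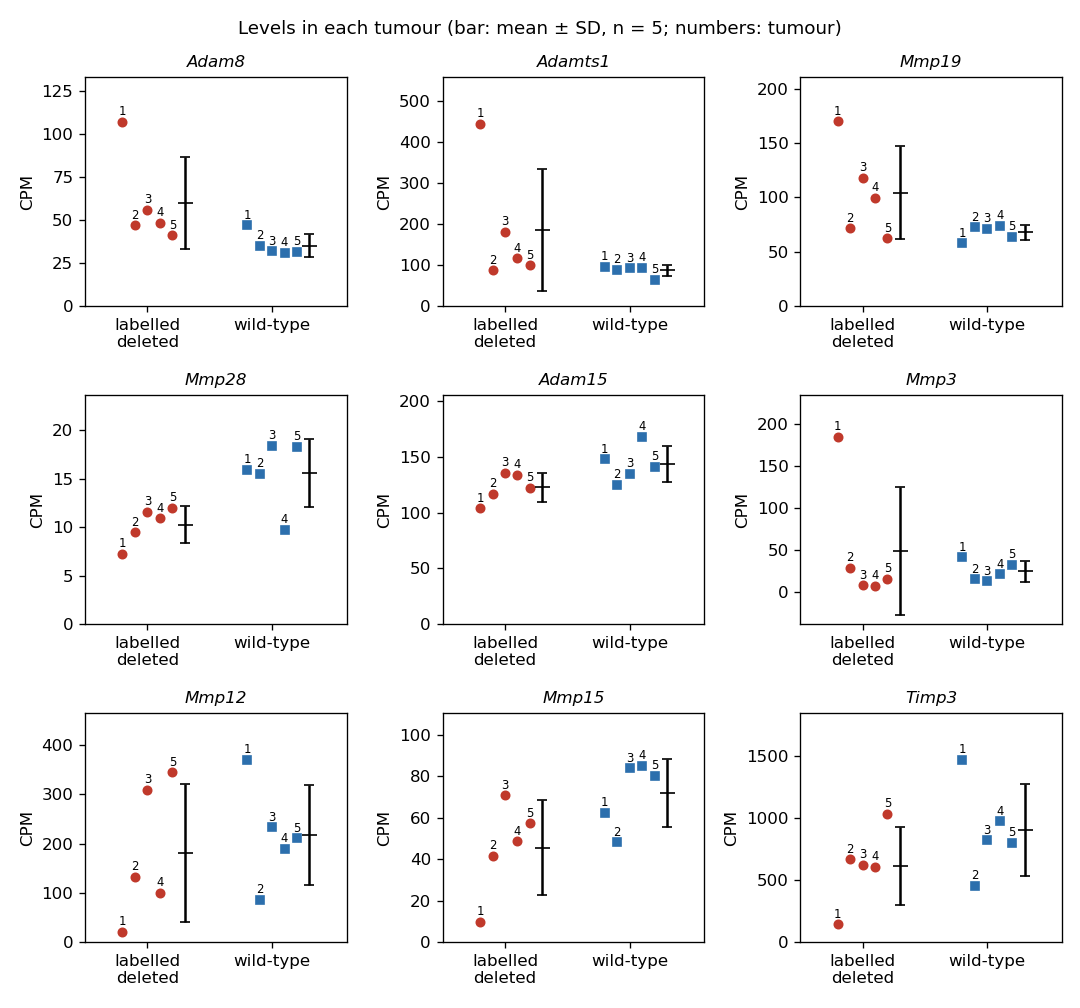
Levels in CPM of 9 members in each tumour, numbered within its group, with the tumours labelled Grem1-deleted left and wild-type right in each panel; bars give the mean ± SD (n = 5). The first 5 panels are the members with an unadjusted p under 0.05, none of which passed after adjustment, and the other 4 are members in which labelled-deleted tumour 1 was the highest (Mmp3, 185 CPM) or the lowest.

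The TIMPs inhibit the enzymes above. Timp1, a secreted TIMP induced in inflamed and fibrotic tissue, was at 185, 216, 142, 173 and 161 CPM in labelled-deleted tumours 1 to 5, against 337, 133, 235, 221 and 203 CPM in wild-type tumours 1 to 5. The groups overlapped and the log2 fold change was -0.37 (SE 0.22, adjusted p = 0.759), which moved to -0.19 without wild-type tumour 1. Timp2 stood at 1082, 830.0, 638, 1052 and 547 CPM in tumours labelled deleted, and at 669, 965, 597, 524 and 504 CPM in wild-type tumours. For Timp2 the log2 fold change was 0.35 (SE 0.24). Timp3, which stays bound to matrix and also inhibits ADAM17, stood at 143, 666, 625, 605 and 1034 CPM in tumours labelled deleted, and at 1471, 451, 820.0, 974 and 800.0 CPM in wild-type tumours. Its log2 fold change was -0.56 (SE 0.45), and -0.30 (SE 0.31) without labelled-deleted tumour 1. Exons of Syn3, on the opposite strand, overlap 21.3% of its exon length. The ratio of Timp3 to Timp2 per kb, which does not depend on library scaling, was 0.0632, 0.384, 0.469, 0.275 and 0.904 in tumours labelled deleted and 1.05, 0.224, 0.656, 0.889 and 0.759 in wild-type tumours. It was lowest in labelled-deleted tumour 1 and highest in wild-type tumour 1, the groups overlapped, and it was chosen after the levels were seen.

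Adam9, Adam10 and Adam17, proteolytic ADAMs, varied least of the 52 members. Over the 10 tumours the SD of log2 CPM was 0.14 for Adam9, 0.14 for Adam10 and 0.15 for Adam17, against a median of 0.61 over all tested members and 0.30 over all tested genes. Other proteolytic ADAMs varied more, up to 0.67 for Adam19, and the median of the 9 was 0.32. Adam10, which cuts Notch receptors and many other surface proteins, was at 258 ± 31.2 CPM in tumours labelled deleted and 272 ± 18.7 CPM in wild-type tumours (SD, n = 5 each). Adam17, the enzyme that releases tumour necrosis factor and ligands of the EGF receptor, was at 86.8 ± 6.62 and 87.3 ± 11.8 CPM in the same groups. Adam9 was at 253 ± 28.8 and 251 ± 22.8 CPM. Their log2 fold changes were -0.08 (SE 0.10), -0.01 (SE 0.10) and 0.01 (SE 0.10), and the sign of that of Adam9 flipped with upper quartile scaling.

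Adam8, a surface protease of leukocytes and of pancreatic cancer cells, lies on chromosome 7 (139978932 to 139992562, minus strand). It stood at 107, 47.0, 56.0, 48.5 and 41.1 CPM in labelled-deleted tumours 1 to 5. In wild-type tumours 1 to 5 it stood at 47.0, 35.0, 31.8, 30.8 and 31.4 CPM. All 5 tumours labelled deleted lay above 4 of the wild-type tumours, and wild-type tumour 1 lay within their range. The log2 fold change was 0.76 (SE 0.26), with p = 0.0139 unadjusted, 0.759 adjusted, and 0.0159 by exact permutation. Without labelled-deleted tumour 1 it was 0.45 (SE 0.14). Summed macrophage markers were 1144 to 3704 CPM in tumours labelled deleted and 2545 to 4470 CPM in wild-type tumours. Labelled-deleted tumour 1, the highest for Adam8, held the lowest sum of macrophage markers (1144 CPM) and of neutrophil markers (12.4 CPM). The part of these markers in the Adam8 value was not tested. Adam15, on chromosome 3 (89338542 to 89349996, minus strand), was at 104, 117, 136, 134 and 122 CPM in tumours labelled deleted and at 148, 125, 135, 168 and 141 CPM in wild-type tumours. Its log2 fold change was -0.23 (SE 0.10), with p = 0.0486 unadjusted, 0.759 adjusted (edgeR), and 0.0476 by exact permutation. This became -0.18 (SE 0.10) without labelled-deleted tumour 1, and -0.13 (SE 0.10) without tumours 1 and 2. An opposite-strand gene overlaps 20.6% of its exon length. Adam28, a protease of lymphocytes and epithelium, was at 12.6 ± 4.26 CPM in tumours labelled deleted and 18.0 ± 5.20 CPM in wild-type tumours (SD, n = 5 each), a log2 fold change of -0.51 (SE 0.27). The other 3 genes of this group, Adam12, Adam19 and Adam33, had log2 fold changes from -0.50 to 0.28.

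Adam11, Adam22 and Adam23 lack protease activity and are known mainly from neurons, where Adam22 and Adam23 bind the secreted protein LGI1. All 3 were low, with group means of 4.31 to 6.21 CPM. Adam23 reached 14.2 CPM in labelled-deleted tumour 3 and lay between 1.95 and 8.84 CPM elsewhere. Of the germline ADAMs, Adam1a and Adam4 were tested, at 6.08 ± 1.96 and 1.72 ± 0.995 CPM in tumours labelled deleted and 5.08 ± 1.75 and 1.46 ± 0.377 CPM in wild-type tumours (SD, n = 5 each). Exons of other genes overlap 99.0% of Adam1a's exon length, so its counts are uncertain.

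Of the ADAMTS enzymes that cut the proteoglycans versican and aggrecan, Adamts1 had the largest log2 fold change. Adamts1, on chromosome 16 (85793827 to 85803113, minus strand), was at 444, 87.3, 180.0, 116 and 99.0 CPM in labelled-deleted tumours 1 to 5. It was at 95.4, 89.0, 91.8, 93.1 and 64.2 CPM in wild-type tumours 1 to 5, a narrow range. All tumours labelled deleted except tumour 2 lay above every wild-type tumour. The log2 fold change was 1.09 (SE 0.42), with p = 0.0267 unadjusted, 0.759 adjusted, and 0.0556 by exact permutation. Without labelled-deleted tumour 1 it was 0.47 (SE 0.21). The other 6 tested members of this group had negative log2 fold changes of -0.42 to -0.09. Without labelled-deleted tumour 1 these were -0.26 to -0.03 in 5 of the 6, and Adamts20 turned positive at 0.17. Of these, Adamts4 averaged 60.5 ± 14.8 CPM in tumours labelled deleted and 76.8 ± 17.8 CPM in wild-type tumours (SD, n = 5 each). Adamts15 was at 29.6 to 133 CPM in tumours labelled deleted and at 42.7 to 152 CPM in wild-type tumours. Labelled-deleted tumour 1 had the lowest value of all tumours in those 6 genes, and the highest in Adamts1.

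The procollagen N-proteinases Adamts2, Adamts3 and Adamts14 trim collagen precursors before fibrils form. Adamts2 stood at 114, 323, 685, 685 and 346 CPM in tumours labelled deleted, against 218, 507, 524, 441 and 284 CPM in wild-type tumours. Its log2 fold change was 0.13 (SE 0.44). Adamts14 stood at 65.8, 11.3, 8.10, 36.7 and 6.62 CPM in tumours labelled deleted, against 7.44, 39.5, 9.55, 6.93 and 8.44 CPM in wild-type tumours. Thus 3 tumours of the 10, labelled-deleted 1 and 4 and wild-type 2, held at least 36.7 CPM and the other 7 held at most 11.3 CPM. Between the groups this gave a log2 fold change of 0.84 (SE 0.75), ranging from 0.13 without labelled-deleted tumour 1 to 1.66 without wild-type tumour 2. Adamts3, which also activates the lymphatic growth factor VEGF-C, was at 5.61 ± 4.80 CPM in tumours labelled deleted and 5.08 ± 0.849 CPM in wild-type tumours (SD, n = 5 each).

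The other tested ADAMTS genes had log2 fold changes from -0.27 to 0.41. Adamts12 and Adamts7, which cut cartilage oligomeric matrix protein, averaged 134 ± 64.3 and 58.2 ± 16.4 CPM in tumours labelled deleted and 163 ± 24.4 and 56.3 ± 13.4 CPM in wild-type tumours (SD, n = 5 each). Adamts10, which binds fibrillin microfibrils, was at 65.2 ± 21.6 and 72.8 ± 9.17 CPM, and Adamts6 at 24.7 ± 13.0 and 19.2 ± 3.40 CPM. Adamts6 was highest in labelled-deleted tumour 1, at 46.5 CPM, and its log2 fold change of 0.36 (SE 0.30) was 0.00 (SE 0.19) without it. Adamts16 was highest in labelled-deleted tumour 2, at 16.5 CPM, against 2.70 to 9.79 CPM elsewhere. Adamts19 was the most variable of the 52, with an SD of 1.76 in log2 CPM. It stood at 0.177, 2.48, 14.6, 16.4 and 3.60 CPM in tumours labelled deleted, against 1.57, 12.3, 9.30, 1.82 and 3.32 CPM in wild-type tumours.

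Taking the members by tumour, labelled-deleted tumour 1 held the lowest value in 26 of the 52 (50.0%), against 29.5% of all tested genes, and the highest value in 12 (23.1%), against 27.9%. Its highest were Mmp3, Mmp8, Mmp9, Mmp14, Mmp16, Mmp19, Timp2, Adam8, Adam9, Adamts1, Adamts6 and Adamts14. Wild-type tumour 1 also held the highest value in 12 members (23.1%), against 9.53% of all genes. These were Mmp10, Mmp11, Mmp12, Mmp13, Mmp24, Mmp25, Timp1, Timp3, Adam12, Adam17, Adam19 and Adamts4. Labelled-deleted tumour 3 led in 8 members (15.4%), against 12.6% of all genes, and wild-type tumour 3 in 8 (15.4%), against 5.63%. Wild-type tumour 5 led in 0, against 6.63% of all genes. Without labelled-deleted tumour 1 the median SD of log2 CPM was 0.43 over members and 0.25 over all tested genes.

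**Figure D5:**
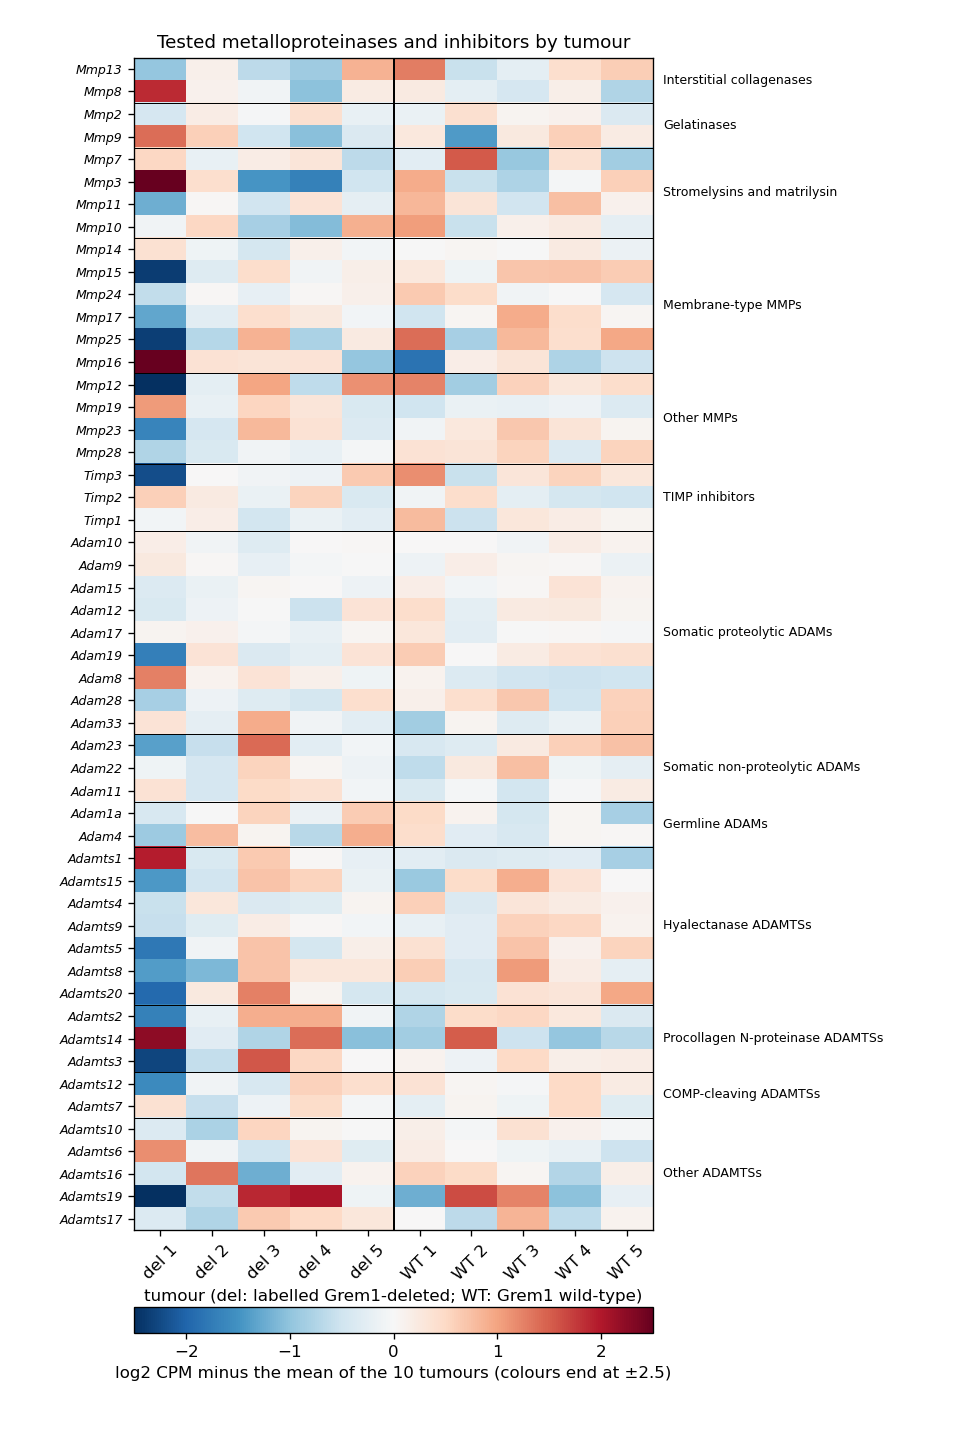
Log2 CPM of the 52 tested members in each tumour, minus the mean of the 10 tumours, in rows by role; the 5 tumours labelled Grem1-deleted stand left of the line and the 5 wild-type tumours right of it. Labelled-deleted tumour 1 holds the lowest value in 26 members and the highest in 12.

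Partner genes of the same proteolytic system, listed by function, held no gene that passed the test: 0 of 25 tested genes, with the lowest adjusted p at 0.759. Of 6 tested genes of plasminogen activation, 2 had positive and 4 negative log2 fold changes, where 55.1% of all tested genes were positive. With labelled-deleted tumour 1 left out, 3 of the 6 were positive, against 51.8% of all tested genes. Serpine2, the protease nexin that inhibits plasminogen activators, averaged 155 ± 69.7 CPM in tumours labelled deleted and 308 ± 111 CPM in wild-type tumours (SD, n = 5 each). Its log2 fold change was -0.99 (SE 0.39, adjusted p = 0.759, edgeR) and -0.76 without labelled-deleted tumour 1. Plau, the urokinase, was at 243 ± 198 and 143 ± 63.0 CPM in these groups, and Serpinb2, another plasminogen activator inhibitor, at 6.70 ± 4.69 and 4.31 ± 2.78 CPM. The log2 fold change of Plau was 0.76 (SE 0.53), and 0.24 (SE 0.46) without labelled-deleted tumour 1. That of Serpinb2 was 0.64 (SE 0.57), and 0.15 without labelled-deleted tumour 3. Of 10 tested activators, inhibitors and cofactors, 8 had negative and 2 positive values, and 4 were positive without labelled-deleted tumour 1. The 3 with the smallest p were Pcsk6, Tfpi2 and Rhbdf2. The proprotein convertase Pcsk6 was at -0.44 (SE 0.23) and the protease inhibitor Tfpi2 at -0.47 (SE 0.26). Rhbdf2, a carrier that brings ADAM17 to the surface, was at -0.19 (SE 0.11). Of 9 tested astacins and ADAMTS-like genes, 6 had positive values, and 7 did without labelled-deleted tumour 1. These 3 lists are short, and their counts were not tested against the share over all genes. Adamtsl3 was at 25.3 ± 41.5 and 3.63 ± 1.38 CPM, a log2 fold change of 2.79 (SE 0.92) that was 0.89 without labelled-deleted tumour 1. Adamtsl5 was at 0.58 (SE 0.24). Papln was at 0.96 (SE 0.48), which was 0.55 without labelled-deleted tumour 2 and 0.26 (SE 0.43) without tumours 1 and 2. The meprins Mep1a and Mep1b, enzymes of the intestinal brush border, reached 6.51 and 89.5 CPM in labelled-deleted tumour 2, which also carried the intestinal markers, and at most 0.157 and 0.494 CPM elsewhere. Whether intestinal tissue was part of that sample was not tested.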

How the data were processed

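Bulk RNA of 10 tumours, 5 labelled Grem1-deleted and 5 wild-type by their titles, was analysed. The authors deposited estimated counts per gene, of which 7.96% were not whole, and per-tumour values on a log2 scale for 25407 genes whose transformation is not named. RSEM 1.3.3, the aligner HISAT2 2.2.1, DESeq2 1.32.0, FastQC 0.11.9 for read quality and bcl2fastq 2.0 are listed, without order, in the submitters' processing notes, with build mm10. RSEM shares reads that fit several genes, so values of near-identical genes are uncertain, and the sources used here give neither the annotation release nor the strand setting. Counts were rounded and filtered with filterByExpr (minimum count 10), which kept 16565 genes. Libraries were scaled by TMM and compared with edgeR 4.0.16 (quasi-likelihood F test, robust, Benjamini-Hochberg adjustment over all tested genes, threshold 0.05). SE is the absolute log2 fold change over the root of F. Positive values are higher in tumours labelled deleted. CPM uses the TMM-scaled total, and log2 CPM a prior count of 2. Exact two-sided permutation used all 252 assignments, with 0.00794 the smallest p they can give. Exon lengths, coordinates and overlaps are from GENCODE M21 (GRCm38), promoters from RefSeq (GRCm38.p6). Other tools were DESeq2 1.42.0, limma 3.58.1 (both in R 4.3.3), matplotlib 3.10.9 and Python 3.11.15, and the fits were tested on simulated data.

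Members and lists were chosen with earlier results of these data known. Values are printed for a panel of 9 members, the 3 most abundant tested members of each role, the 12 with the smallest p and the 6 most variable, and for the 3 partner genes with the smallest p in each of 3 lists. Untested members, Adam12, Adam19, Adam33, Adamts20, Mmp10, Mep1a and Mep1b were named after their values were seen, and Adam34l was added to its role list when its row was found. At a common coefficient of variation of 0.355 (edgeR), precision was set by the spread between tumours more than by counting. The design text calls the tumours biological replicates, but nothing ties each to its own animal, so p-values measure only the spread between these samples. No pair of libraries in a group agreed within sampling noise. Alternatives were DESeq2, limma-voom, other scalings and filters, non-robust dispersions, blocks, left-out tumours, and limma on the deposited log2 values.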

Additional observations from a re-analysis of the deposited data

Results flagged for a closer look

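A value was singled out where, in a group of 5 tumours, its gap to the nearest other tumour took more than 0.71 of the group's range (Dixon's limit). For independent groups of normally distributed values, chance gives about 1 such group in 20. Here the rule was applied to CPM without logs, and some members were named for high variability or small p. The share below therefore cannot be read against that rate. Of 84 groups examined over 42 members, 9 had one (10.7%), 5 of them in labelled-deleted tumour 1. That tumour was above the rest of its group for Mmp3 (185 CPM, against 6.49 to 28.4 CPM), Adamts1 (444 CPM, against 87.3 to 180.0 CPM), Adam8 (107 CPM, against 41.1 to 56.0 CPM), Mmp8 (16.2 CPM, against 2.07 to 5.05 CPM) and Mmp16 (13.2 CPM, against 0.983 to 2.69 CPM). Labelled-deleted tumour 3 was above its group for Adam23 (14.2 CPM, against 1.95 to 4.98 CPM). Among wild-type tumours, tumour 2 was high for Adamts14 (39.5 CPM, against 6.93 to 9.55 CPM), tumour 1 was high for Adam8 (47.0 CPM, against 30.8 to 35.0 CPM) and tumour 5 was low for Adamts1 (64.2 CPM, against 89.0 to 95.4 CPM).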

How the results depend on the processing

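Over 21 alternatives no tested member passed an adjusted p of 0.05, and among the 42 members with fully printed values the lowest adjusted p was 0.507. The count over all genes stayed at 0 except with DESeq2, which called 7. The 5 members at an unadjusted p under 0.05 became 3 with limma-voom and 3 with the deposited log2 values, and 2 to 9 when 1 tumour was left out (2 without wild-type tumour 5, 3 without labelled-deleted tumour 1 or wild-type tumour 1, 8 without labelled-deleted tumour 5 and 9 without wild-type tumour 2). The median over members stayed between -0.21 and -0.02. Replicate numbers did not pair all the tumours: same-numbered tumours correlated in their deviations from group means at 0.0687, 0.107, 0.317, -0.0157 and 0.387. Labelled-deleted tumours 3 and 5 correlated best with the wild-type tumour of their own number, while tumours 1, 2 and 4 did not. Tumours 3 of both groups share the number 38 in their IDs, and tumours 5 share 40. Wild-type tumours 2 and 4 carry these numbers as well. With the replicate block 0 genes and 5 members at an unadjusted p were found, with a median of -0.21. Log2 fold changes changed sign in 75 of 882 values, in 23 members, and the cause was not tested. With the replicate block these were Mmp7 (0.10), Mmp3 (-0.08), Adamts2 (-0.05), Adamts3 (-0.25) and Adamts19 (-0.08). With limma-voom they were Mmp7 (0.06), Mmp3 (-0.20), Adamts2 (-0.07), Adamts3 (-0.30) and Adamts19 (-0.05). With the deposited log2 values they were Adam17 (0.00), Mmp7 (0.04), Adamts2 (-0.03) and Adamts3 (-0.11), and with upper quartile scaling Adam9 (-0.01). In the block for the number in the tumour ID, labelled-deleted tumours 1 and 4 were alone under their numbers, 25 and 39. These tumours therefore added nothing to the difference between the labels in that fit. With this block the values that changed sign were Mmp9 (-0.23), Adam17 (0.00), Mmp3 (-0.73), Mmp12 (0.30), Adam9 (-0.05), Adam23 (0.30), Adam22 (0.08), Adamts15 (0.00), Adamts14 (-0.45), Adamts7 (-0.21) and Adamts6 (-0.23). Without labelled-deleted tumours 1 and 2 they were Mmp2 (0.05), Mmp9 (-0.72), Mmp8 (-0.05), Mmp3 (-1.31), Mmp12 (0.21), Mmp23 (0.08), Adam9 (-0.08), Adam23 (0.33), Adam22 (0.11), Adamts15 (0.15), Adamts12 (0.03), Adamts10 (0.10) and Adamts6 (-0.00). Leaving out 1 tumour at a time gave ranges across 0 for Mmp2 (-0.14 to 0.07), Mmp9 (-0.32 to 0.36), Mmp3 (-0.75 to 1.29), Mmp12 (-0.64 to 0.02), Adam9 (-0.06 to 0.05), Adam23 (-0.76 to 0.11), Adamts7 (-0.08 to 0.19), Adamts16 (-0.57 to 0.18), Mmp14 (-0.13 to 0.07), Adam22 (-0.24 to 0.18), Adamts2 (-0.12 to 0.37), Adamts3 (-0.46 to 0.42), Adam17 (-0.08 to 0.06), Adamts19 (-0.12 to 0.89), Adam4 (-0.04 to 0.42) and Mmp7 (-0.39 to 0.41).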
